A study of Mus musculus with 10 samples.

Results

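The table of normalized counts held 64 genes of the replication-dependent histone clusters among its 16865 genes, and these 64 are described here. They were taken by symbol, as every gene whose name begins with Hist1h, Hist2h, Hist3h or Hist4h. By the same symbols they fall into 5 H1 genes, 18 H2A genes, 18 H2B genes, 11 H3 genes and 12 H4 genes. RNA was measured in 10 leukemic spleens of C57BL/6 mice, 5 labelled Control and 5 labelled Sirt1 deleted. Both groups were sub-lethally irradiated recipients that carried an intravenously injected T cell acute lymphoblastic leukemia (T-ALL) with a conditional Sirt1 allele. Control mice were given corn oil only, and Sirt1 deleted mice were given 3 mg of tamoxifen in corn oil, both intraperitoneally. No group received tamoxifen without the conditional allele, so an effect of tamoxifen and an effect of the deletion cannot be told apart. The labels name no recombinase or promoter, and give neither the leukemia that each recipient carried nor the age of the mice. Nor do they say that the 5 spleens of a group came from separate leukemias, so each p-value reflects only the spread between the samples at hand, which may be technical.

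Histones H2A, H2B, H3 and H4 form the protein core around which DNA is wound, and linker histone H1 sits where the DNA enters and leaves that core. The replication-dependent genes are clustered, lie mostly in single exons and are transcribed in S phase, when newly copied DNA has to be packaged. Their messenger RNAs characteristically end in a short stem-loop in place of a poly(A) tail, which the stem-loop binding protein Slbp recognises, although some genes also give polyadenylated forms. Sirt1 encodes a NAD-dependent deacetylase that acts on histones and on other proteins. The labels say that libraries were strand-specific and made from total RNA, and whether poly(A) RNA was selected is not given in the sources used here.

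Estimated depth ran from 21.2 to 44.3 M reads per library, with a mean of 38.4 ± 6.38 M in control and 31.7 ± 8.23 M in Sirt1 deleted libraries (SD, n = 5). One normalized count was worth about 1 read, since a value of 10 stood for 6.20 to 13.1 estimated reads. Sirt1 itself stood at 1324, 1348, 1174, 1192 and 1126 in control libraries 1 to 5 and at 922, 824, 1071, 1061 and 709.6 in Sirt1 deleted libraries 1 to 5. Every Sirt1 deleted library lay below every control library, and 74.4% of the control mean was left (log2 difference -0.44, SE 0.107, exact two-sided permutation p = 0.00794, the smallest that 5 against 5 libraries can give). The Sirt1 level was called by limma (adjusted p = 0.0125), but not in 5 of the other fits (limma adjusted p from 0.0940 to 0.999), and with the length slope of each library as a covariate the difference was -0.000569. T cell markers were abundant in both groups, with Cd3e at 22383 ± 782 in control and 23564 ± 1369.7 in Sirt1 deleted libraries.

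The stem-loop is shown because it defines the mature end of these messengers and because H4 genes carry other forms of it than the remaining classes. In the GENCODE M21 transcripts (GRCm38), a 16-base run with the letters of the histone stem-loop followed the stop codon in 42 of the 64 genes, 21 to 58 bases behind it with a median of 31.5 bases. There were 8 distinct sequences, of which the 4 that end called genes follow, in the sense direction, with the 4 loop bases in capitals.
Hist1h2ag: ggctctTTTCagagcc
Hist1h2bk: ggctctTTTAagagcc
Hist1h4c: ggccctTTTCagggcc
Hist1h4b: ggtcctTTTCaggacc
The Hist1h2ag copy lies at chr13:22042483-22042498, minus strand, and the same letters ended 24 genes, of which 3 were H1, 10 H2A, 7 H2B and 4 H3 genes. The Hist1h2bk form (chr13:22036300-22036315, plus strand) was carried by 2 H2B and 3 H3 genes. The Hist1h4c form (chr13:23698089-23698104, minus strand) belonged to 6 H4 genes, and the Hist1h4b form (chr13:23757366-23757381, plus strand) to 2 H4 genes. For the other 22 genes no matching letters were found behind the stop codon of the transcript used, which says only that the annotated transcript does not hold them.

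Histone messenger RNA was low in every library. Summed over the clusters, with genes of identical values counted once, it came to 3076, 2351, 2379.9, 2799 and 3654 normalized counts in control libraries 1 to 5. In Sirt1 deleted libraries 1 to 5 the sum was 4006, 4438, 4546, 3682 and 4129. These sums made up 0.00686% to 0.0108% of a control library and 0.0108% to 0.0133% of a Sirt1 deleted library. The lowest Sirt1 deleted sum lay just above the highest control sum, and the group means were 2852 ± 541 and 4160 ± 346 (SD, n = 5). In bulk tissue, fewer cells of a type and less RNA per cell cannot be told apart, which holds for every difference that follows.

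Of the 64 genes, 58 had at least 10 normalized counts in at least 5 libraries and were tested. With limma and Benjamini-Hochberg adjustment over all 13567 genes tested, 22 of the 58 were called higher in Sirt1 deleted spleens and 0 lower, where calling means an adjusted p under 0.05. With genes of identical values counted once, 21 of 57 were called higher. Among all genes tested 14.5% were called higher and 17.5% lower, or 32% in either direction. The difference of a gene is given as log2(value + 1) in Sirt1 deleted minus control, and its median was 0.66 over the 58 histone genes and 0.00 over all genes tested. Positive differences were found in 54 of the 58, and without the filter in 57 of the 64, against 50.1% of all genes tested. The groups did not overlap in 13 genes, and 8.28% of all genes tested had Sirt1 deleted libraries wholly above the control libraries. Of the 58 genes, 11 passed the filter with 10 counts in all 5 Sirt1 deleted libraries but not in all control libraries. The called Hist1h2ao, Hist1h3f and Hist1h4h were among these 11. Others passed mainly through the Sirt1 deleted group, such as the called Hist1h4j, with 1 control and 4 Sirt1 deleted libraries at 10. Counts and medians over the tested genes are therefore descriptions only. Transcript length moved with these differences and is taken up with its values after the classes.

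**Figure D1:**
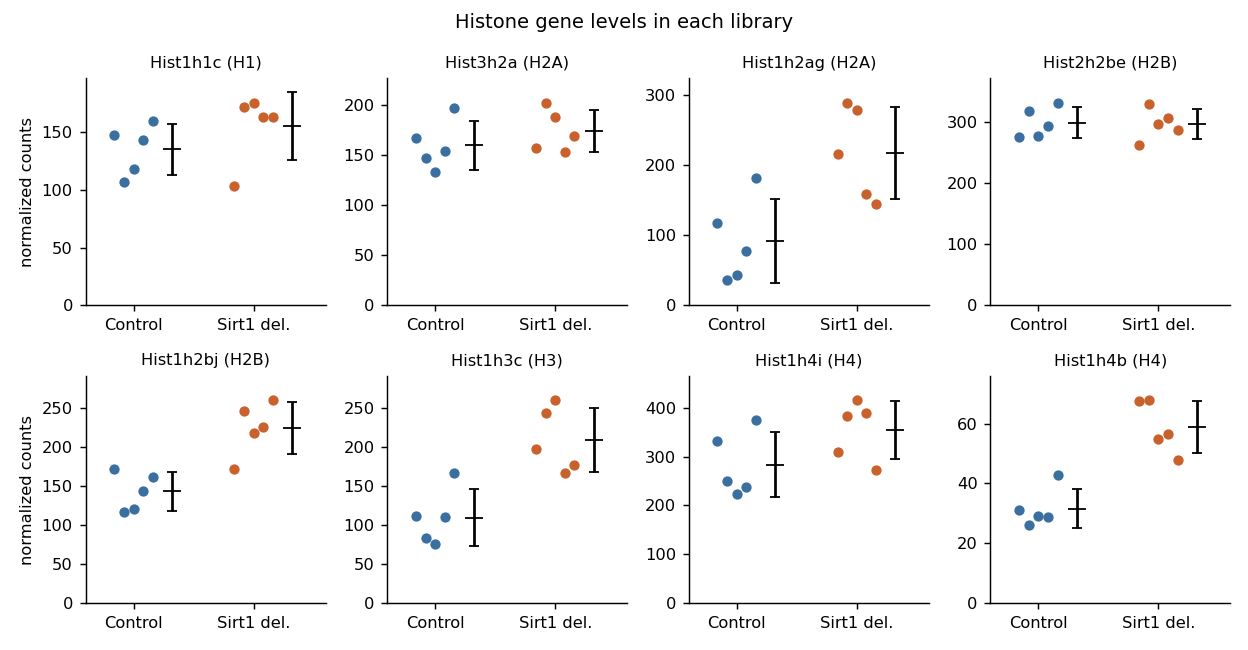
Normalized counts (vertical axis) of 8 histone genes from the 5 classes in each control and Sirt1 deleted library (points, in the order of libraries 1 to 5), with the group mean and SD as a bar. Hist1h2bj and Hist1h4b have groups that do not overlap, Hist1h2ag and Hist1h3c overlap through control library 5, and the means of Hist2h2be are 298.2 and 295.7.

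Linker histone genes had the lowest class median. None of the 5 H1 genes was called in either direction by limma, with 0 of 5 also under an unadjusted p of 0.05, and their median log2 difference was 0.38. Hist1h1c, which encodes the H1.2 linker histone and had the most normalized counts of the class, stood at 148, 107, 118, 144 and 160.1 in control libraries 1 to 5 and at 104, 172, 176, 163 and 163 in Sirt1 deleted libraries 1 to 5. Sirt1 deleted library 1 lay below every control library and the other 4 above every control library, and the difference was 0.19 (SE 0.161). Hist1h1b had the lowest difference of the class, 0.06 (SE 0.242), with 48.7, 38.4, 59.7, 44.6 and 35.2 in control and 50.1, 52.7, 46.4, 25.3 and 69.5 in Sirt1 deleted libraries. Its groups overlapped over almost their whole range. The other members, Hist1h1a, Hist1h1d and Hist1h1e, had differences of 0.44, 0.38 and 0.39 that did not pass the test.

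Among tested genes, H2A had the highest class median together with the widest range, whose ends were the near copies Hist2h2aa2 and Hist2h2aa1. Of 15 H2A genes tested, 4 were called higher (Hist1h2ae, Hist1h2ag, Hist1h2ai and Hist1h2ao), 0 lower, and the median log2 difference was 0.79. Without the filter the median was 0.68 for H2A, close to 0.67 for H3 and 0.67 for H4, with 0.57 for H2B and 0.38 for H1. Hist1h2ag (chr13:22042460-22042944, minus strand, 1 exon) stood at 118, 36.6, 43, 77.4 and 182 in control and at 216, 289, 278, 159 and 145 in Sirt1 deleted libraries 1 to 5 (log2 difference 1.44, SE 0.379, limma adjusted p = 0.0158). Control library 5 lay above Sirt1 deleted libraries 4 and 5, so the groups overlapped. Hist1h2ai (chr13:21716422-21716814, plus strand) stood at 35.3, 20.1, 23.1, 34 and 96.5 in control and at 104, 119, 124, 80.0 and 55 in Sirt1 deleted libraries (log2 difference 1.36, SE 0.363, limma adjusted p = 0.0162). Hist1h2ae (chr13:23570517-23571220, minus strand) stood at 28.2, 23.8, 28.5, 33.4 and 59.1 in control and at 82.5, 84.5, 66.6, 41 and 64.4 in Sirt1 deleted libraries (log2 difference 0.98, SE 0.255, limma adjusted p = 0.015). In both genes control library 5 was well above the other 4 control libraries. Hist1h2ao (chr13:21810465-21810944, plus strand) stood at 28.2, 4.76, 6.9, 17.1 and 53.7 in control and at 58.3, 51.2, 82.4, 32.2 and 28.2 in Sirt1 deleted libraries (log2 difference 1.52, SE 0.534, limma adjusted p = 0.0454). Only 2 Sirt1 deleted libraries exceeded every control library for this gene, and 93.8% of the 31-base words of its transcript also occur in that of Hist1h2ap.

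Several H2A genes did not pass the test. Hist3h2a, on chromosome 11, had the most counts of the class over all libraries, although in Sirt1 deleted libraries Hist1h2ag had more. It stood at 167, 147, 133, 154 and 197 in control and at 157, 202, 188, 153 and 169 in Sirt1 deleted libraries, a difference of 0.13 (SE 0.123, limma adjusted p = 0.44). Its groups overlapped. Hist2h2aa2 had the lowest difference of all histone genes, -2.07 (SE 0.945, limma adjusted p = 0.107), and its near copy Hist2h2aa1 the highest, 2.11 (SE 0.86, limma adjusted p = 0.0748). Hist2h2aa2 stood at 15, 14.3, 33.4, 24.2 and 38.5 in control and at 9.0, 0, 65.4, 8.75 and 0 in Sirt1 deleted libraries, while Hist2h2aa1 stood at 46.4, 16.6, 0, 33.4 and 29.2 and at 117, 104, 23.8, 63.6 and 65.4. In control library 3 Hist2h2aa1 was at 0, and in Sirt1 deleted libraries 2 and 5 Hist2h2aa2 was at 0. The 2 are near copies, since 100% of the 31-base words of the Hist2h2aa2 transcript occur in that of Hist2h2aa1 and 89.6% the other way, so the split of reads between them is uncertain. Both also share their sequence with Gm20634, annotated at the same place on chromosome 3, which the sums leave out. Summed, the pair stood at 50.2 ± 16.9 in control and 91.3 ± 24.3 in Sirt1 deleted libraries (n = 5, log2 difference 0.88, SE 0.248, limma adjusted p = 0.0196). Hist1h2ao and Hist1h2ap, summed in the same way, stood at 56.7 ± 30.7 and 98.6 ± 21.7 (log2 difference 0.93, SE 0.331, limma adjusted p = 0.0468). These sums were formed after the values had been seen. Hist1h2ad, Hist1h2an and Hist2h2ab had too few counts to be tested, and Hist1h2al is annotated as a pseudogene and differed by -0.08.

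H2B genes held the largest part of the core histone counts. Of 16 tested H2B genes 8 were called higher, or 7 of 15 when Hist1h2bq and Hist1h2br are counted once, and the median log2 difference was 0.63. These 2 genes held identical values in all 10 libraries, 44.8, 62.1, 60.0, 69.9 and 67.6 in control and 141, 123, 113, 77.1 and 121 in Sirt1 deleted libraries (log2 difference 0.90, SE 0.174, limma adjusted p = 0.00797). They lie apart on chromosome 13 (chr13:21806612-21810197, minus strand, and chr13:21833743-21837530, plus strand), and 98.3% of the 31-base words of the Hist1h2bq transcript occur in that of Hist1h2br, so the pair counts as 1 measurement. Every Sirt1 deleted library lay above every control library. Hist1h2bj (chr13:22043214-22043676, plus strand) stood at 172, 117, 120.4, 144 and 162 in control and at 172, 246, 217, 226 and 259.5 in Sirt1 deleted libraries (log2 difference 0.65, SE 0.14, limma adjusted p = 0.00902). Its groups were apart by the narrowest margin, with 172.012 as the highest control value and 172.017 as the lowest Sirt1 deleted value. Hist1h2bk (chr13:22035870-22036345, plus strand) stood at 102, 68.7, 83.5, 89.1 and 114 in control and at 126, 149.5, 119.9, 162 and 164 in Sirt1 deleted libraries (log2 difference 0.66, SE 0.15, limma adjusted p = 0.0104). Hist1h2bm (chr13:21722044-21722567, plus strand) stood at 33.8, 36.7, 37.9, 47.2 and 39.9 in control and at 72.8, 59.5, 59.9, 49.6 and 73 in Sirt1 deleted libraries (log2 difference 0.67, SE 0.156, limma adjusted p = 0.0108). The groups did not overlap in either of these genes.

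The remaining called H2B genes had overlapping groups. Hist1h2bb (chr13:23746734-23747241, plus strand) stood at 25.6, 16.6, 21.9, 18.6 and 22.2 in control and at 23.4, 40.1, 34.7, 37.5 and 37.5 in Sirt1 deleted libraries (log2 difference 0.69, SE 0.199, limma adjusted p = 0.0218). Hist1h2be (chr13:23583670-23621124, minus strand, 2 exons) stood at 21.9, 27.7, 18.4, 27.6 and 38.1 in control and at 40.4, 42.8, 50.9, 32.1 and 58.4 in Sirt1 deleted libraries (log2 difference 0.74, SE 0.221, limma adjusted p = 0.0244). Hist3h2ba (chr11:58948920-58949533, plus strand) stood at 83.9, 81.5, 70.2, 62.7 and 98.9 in control and at 91.8, 127, 118, 119 and 121 in Sirt1 deleted libraries (log2 difference 0.54, SE 0.143, limma adjusted p = 0.0159). In each of these genes 4 Sirt1 deleted libraries exceeded every control library. Hist2h2be, a well known source of polyadenylated histone messengers, had the most H2B counts in control but not in Sirt1 deleted libraries. It stood at 274, 317, 276, 293 and 331 in control and at 262, 328, 296, 306 and 287 in Sirt1 deleted libraries. Its means were 298.2 and 295.7, the difference was -0.01 (SE 0.0885, limma adjusted p = 0.931), and no Sirt1 deleted library exceeded every control library. Hist1h2bc, which had more counts than Hist2h2be in Sirt1 deleted libraries (means of 240.2 and 308), differed by 0.37 (SE 0.159, limma adjusted p = 0.0856). Hist2h2bb had the lowest difference of the class, -0.09, with 12.4, 20.1, 27.9, 17.8 and 19.9 in control and 18, 8.3, 25.2, 15.7 and 29.4 in Sirt1 deleted libraries, which overlap throughout. Hist1h2bp and the pseudogene Hist3h2bb-ps were not tested.

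H3 genes were called in 5 of 11 cases, all higher, with a median log2 difference of 0.67. Hist1h3c (chr13:23744973-23745602, minus strand), with the most counts of the class, stood at 111, 82.8, 75.9, 111 and 167 in control and at 198, 244, 259.8, 166 and 177 in Sirt1 deleted libraries (log2 difference 0.96, SE 0.20, limma adjusted p = 0.00856). Hist1h3a (chr13:23761853-23762386, minus strand) stood at 45.4, 20.1, 29.8, 33.3 and 49.9 in control and at 67.4, 85.8, 82.1, 74 and 49.6 in Sirt1 deleted libraries (log2 difference 1.03, SE 0.238, limma adjusted p = 0.0107). In both genes 4 of the 5 Sirt1 deleted libraries exceeded every control library. Hist1h3e (chr13:23561534-23562369, minus strand) stood at 40.3, 30.7, 31, 39.5 and 34.5 in control and at 58.5, 65, 66.1, 43.5 and 51.8 in Sirt1 deleted libraries (log2 difference 0.67, SE 0.163, limma adjusted p = 0.0121). Hist1h3f (chr13:23544052-23545312, plus strand) stood at 15.1, 6.01, 8.62, 22.7 and 18.4 in control and at 25.9, 33.3, 30.5, 25.3 and 25.8 in Sirt1 deleted libraries (log2 difference 1.07, SE 0.31, limma adjusted p = 0.022). Hist1h3h (chr13:21717659-21718069, plus strand) stood at 49.5, 22.5, 24.9, 27.1 and 46.8 in control and at 70.1, 88.5, 50.4, 54 and 76 in Sirt1 deleted libraries (log2 difference 1.01, SE 0.247, limma adjusted p = 0.0124). The groups of these last genes did not overlap. Hist2h3b had the lowest difference, 0.20 (SE 0.363), with 21.5, 9.48, 14.9, 15.5 and 35.3 in control and 32.4, 15.2, 23.7, 10.5 and 28.3 in Sirt1 deleted libraries. No Sirt1 deleted library stood above all control libraries for it.

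H4 genes, which all encode the same mature protein from differing nucleotide sequences, were also called in 5 of 11 cases, all higher, with a median log2 difference of 0.67. Hist1h4b (chr13:23757013-23757409, plus strand) stood at 31.2, 26, 29.2, 28.6 and 42.9 in control and at 67.5, 67.7, 54.9, 56.6 and 47.9 in Sirt1 deleted libraries (log2 difference 0.89, SE 0.172, limma adjusted p = 0.00797). Hist1h4c (chr13:23697635-23698454, minus strand) stood at 26.8, 21.1, 17.5, 27 and 32.2 in control and at 45.8, 42.7, 51.2, 40.9 and 55.6 in Sirt1 deleted libraries (log2 difference 0.92, SE 0.188, limma adjusted p = 0.00855). Neither gene showed an overlap between its groups. Hist1h4d (chr13:23581598-23582735, plus strand) stood at 53.7, 39.9, 66.1, 51.7 and 66.6 in control and at 72.8, 84.1, 74.3, 83.6 and 136 in Sirt1 deleted libraries (log2 difference 0.67, SE 0.195, limma adjusted p = 0.0222). Hist1h4h (chr13:23531050-23531519, plus strand) stood at 26.2, 11.8, 9.09, 31.7 and 33 in control and at 44.1, 35.9, 59.5, 42.6 and 54.1 in Sirt1 deleted libraries (log2 difference 1.19, SE 0.332, limma adjusted p = 0.019). Their groups were apart too, and for Hist1h4d Sirt1 deleted library 5 stood far above the rest. Hist1h4j (chr13:21735064-21735837, plus strand) stood at 9.0, 4.71, 10.1, 7.73 and 6.13 in control and at 16.2, 18, 21.9, 9.56 and 18.4 in Sirt1 deleted libraries (log2 difference 1.05, SE 0.285, limma adjusted p = 0.0171), where only Sirt1 deleted library 4 lay within the control range. Hist1h4i, with the most H4 counts, stood at 332, 250.2, 223, 237 and 376 in control and at 309.5, 384, 416, 389.7 and 274 in Sirt1 deleted libraries, a difference of 0.33 (SE 0.159, limma adjusted p = 0.12). Hist1h4k had the lowest difference, 0.10, with 15.5, 14.1, 10.2, 12.3 and 25.3 in control and 20.7, 19.3, 7.8, 15.7 and 20.5 in Sirt1 deleted libraries. Neither of these passed the test, and Hist4h4 on chromosome 6 was not tested.

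**Figure D2:**
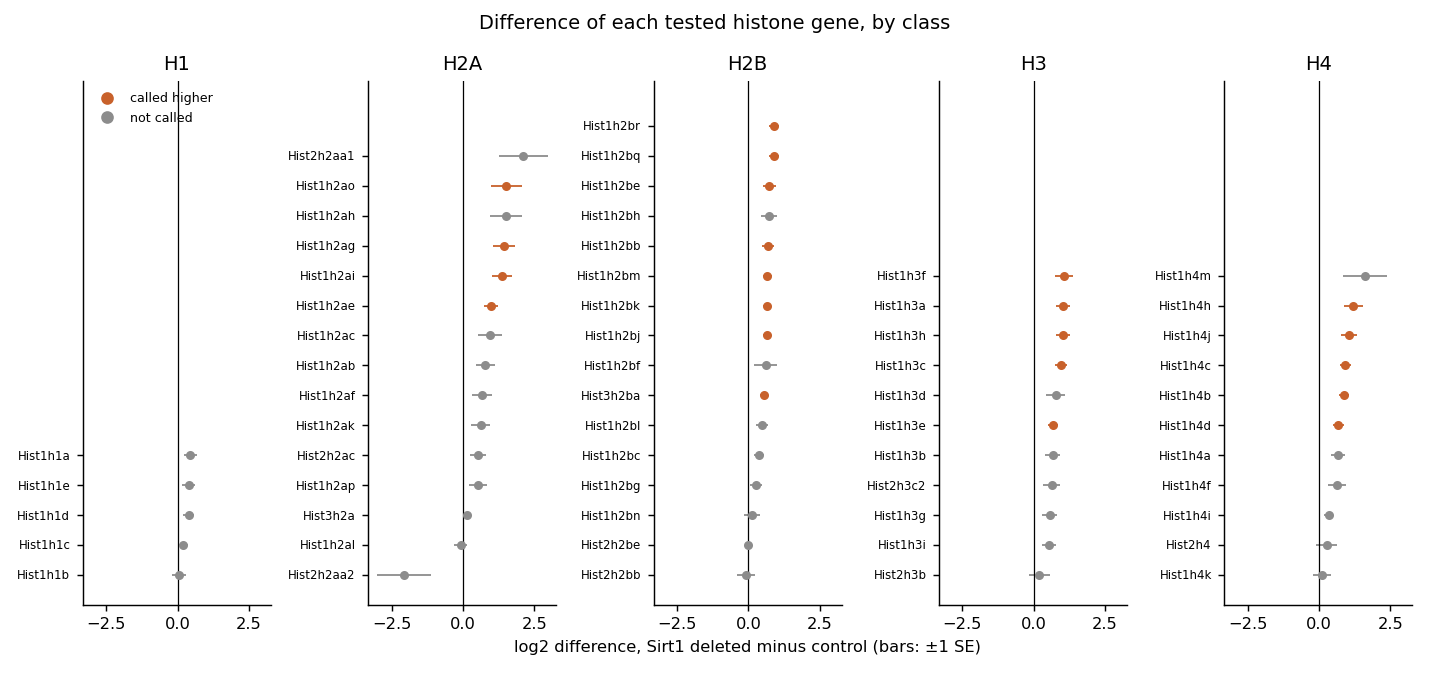
Log2 difference (Sirt1 deleted minus control) of each tested histone gene by class, with bars of 1 SE, in colour where the gene was called higher and grey where it was not. H1 holds no called gene, the H2A points spread from -2.07 to 2.11, and no called point lies below 0.

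Shares of the summed core histone counts were compared next, as descriptions. H3 genes made up 12.7% to 14.4% of the core sum in control libraries and 14.9% to 17.2% in Sirt1 deleted libraries, without overlap. H2B genes made up 45.4 ± 4.47% and 40.3 ± 3.30%, H2A genes 21.4 ± 3.37% and 24.4 ± 3.27%, and H4 genes 19.5 ± 0.845% and 19.2 ± 1.27% (SD, n = 5). These shares overlapped between the groups. The ratio of mean sums, Sirt1 deleted over control, was 1.21 for H1, 1.34 for H2B, 1.46 for H4, 1.66 for H2A and 1.75 for H3. Per kilobase of annotated transcript, the highest control levels were 390.1 normalized counts for Hist1h4i and 309 for Hist1h2bj, and in Sirt1 deleted libraries these were 488 and 484. Annotated transcripts of these genes differ in length and the form expressed was not determined.

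H2A and H2B genes often lie back to back, and 12 such pairs had starts 173 to 302 bases apart, with a median of 247 bases. Promoters are shown because an octamer, bound by Pou2f1 (Oct-1), is a known element of H2B genes. The 250 bases before the RefSeq start (GRCm38.p6) of Hist1h2bk (chr13:22035571-22035820, plus strand), which faces Hist1h2ah, and of Hist1h2bm (chr13:21721794-21722043, plus strand), which is in none of the pairs, follow, with the octamer in capitals, 30 and 25 bases before the start.
Hist1h2bk: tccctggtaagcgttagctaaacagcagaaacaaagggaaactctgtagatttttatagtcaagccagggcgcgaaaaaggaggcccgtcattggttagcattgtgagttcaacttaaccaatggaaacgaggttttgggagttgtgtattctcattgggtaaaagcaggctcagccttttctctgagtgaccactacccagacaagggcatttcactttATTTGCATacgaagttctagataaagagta
Hist1h2bm: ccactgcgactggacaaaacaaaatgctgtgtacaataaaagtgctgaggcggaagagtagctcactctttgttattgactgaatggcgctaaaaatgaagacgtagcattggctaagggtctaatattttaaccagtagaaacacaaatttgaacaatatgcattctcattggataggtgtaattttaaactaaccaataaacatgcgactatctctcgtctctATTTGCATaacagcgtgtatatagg
RefSeq promoters of 300 bases, from 250 before to 50 after the start, were matched for 55 of the 64 genes and searched on both strands. The octamer ATTTGCAT was found in 6 of 16 H2A and 5 of 15 H2B promoters, in 0 of 4 H1, 0 of 9 H3 and 0 of 11 H4 promoters, and in 1.74% of all 32851 promoters. The letters CCAAT were found in 47 of 55 (85.5%, against 37.4% of all), with 3 of 11 H4 promoters among them and every matched promoter of the other classes. The letters TATAAA were found in 31 of 55 (56.4%, against 13.6% of all). The H1 element AAACACA was found in 3 of 4 H1 promoters and in 5 of 55 overall (all promoters 7.18%). None of these motifs contains another, back-to-back genes share much of a window, and a match is a description of letters only.

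Within the pairs the H2A member had the larger difference in 11 of 12, untested genes and the identical Hist1h2bq and Hist1h2br included. Of 9 pairs with both genes tested it was larger in 8, in 7 with the length and GC correction described below and in 3 with the Rn45s level as a covariate. Hist1h2ag and Hist1h2bj, with starts 270 bases apart, differed by 1.44 and 0.65, and Hist1h2ai and Hist1h2bl, 279 bases apart, by 1.36 and 0.47. The exception was Hist1h2ap with Hist1h2br, at 0.52 and 0.90. Of the 31-base words of Hist1h2ag, Hist1h2bj, Hist1h2ai and Hist1h2bl, 79.8%, 67.2%, 92.0% and 88.6% recur in other genes. The split of reads is thus uncertain for these genes too. The difference between partners was not tested. By position, genes on chromosome 13 were called in all 3 dense blocks, with 7 of 15 at 21.7 to 21.8 Mb, 3 of 5 at about 22 Mb and 11 of 27 at 23.5 to 23.8 Mb. Median differences were 0.67, 0.66 and 0.67. With the identical Hist1h2bq and Hist1h2br counted once, the first block had 6 of 14 called. With the correction 2, 0 and 3 genes of these blocks were called, with medians of 0.20, 0.15 and 0.33. The 2 were that identical pair, which is 1 measurement. On chromosome 3 none of 8 tested genes was called by limma, 2 had an unadjusted p under 0.05, and the median difference was 0.24, or 0.01 with the correction. Those 2 were the near copies Hist2h2aa1 and Hist2h2aa2 (2.11 and -2.07), between which the split of reads is uncertain. Their sum, formed after the values had been seen, was called (0.88, limma adjusted p = 0.0196). The chromosome 3 block was not compared with the others by a test.

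Calls were also counted by stem-loop form, and the forms without a call had only 1 or 2 tested genes each. The 5 genes with the loop TTTA (Hist1h2bb, Hist1h2bk, Hist1h3c, Hist1h3e and Hist1h3f) were all called higher, as were Hist1h4b and Hist1h4j with the ggtcct stem. So were 3 of 5 tested genes with the ggccct stem and the loop TTTC, and 8 of 23 with the commonest form. Of the genes with the loop TTTA or the ggtcct stem none was called with the length and GC correction. Where the annotated transcript ended within 100 bases of the stem-loop, 10 of 20 genes were called, with a median difference of 0.68. Where it ran on for over 100 bases, 8 of 20 were called with a median of 0.67. With no stem-loop letters it was 4 of 18 with a median of 0.45, or 3 of 17 with identical genes counted once. With the correction, which acts on length, these groups held 0, 3 and 2 called genes and had medians of 0.19, 0.43 and -0.10. The 2 were the identical Hist1h2bq and Hist1h2br. Genes of which at least 40% of the 31-base words recur in another gene were called in 17 of 40 cases (median 0.66). With identical genes counted once it was 16 of 39, and the split of reads among such genes is uncertain. The others were called in 5 of 18 cases (median 0.41). The correction left 2 and 3 called, with medians of 0.20 and 0.26, and the 2 were again Hist1h2bq and Hist1h2br. These groupings were chosen with results in view and were not tested.

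Histone transcripts are short, and short transcripts as a class stood higher in the Sirt1 deleted libraries. Across all genes, the slope of a library's deviation on log2 transcript length was 0.00352 to 0.161 in the 5 control libraries and -0.240 to -0.0250 in the 5 Sirt1 deleted libraries, so the slopes did not overlap. The median histone transcript was 536.5 bases long, against 3088 bases for all genes tested. Among genes in the shortest quintile, up to 1784 bases, 44.7% were called higher, and the histone genes in that quintile were called in 21 of 51 cases (41.2%). The share of calls was thus near its background among short genes. Median differences were 0.66 for those histone genes and 0.23 for the quintile as a whole, which includes them and was not matched to them in length. Sirt1 deleted libraries lay wholly above control libraries in 25.1% of the shortest quintile, and 88.4% of that quintile had a positive difference.

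After a correction for transcript length and GC content in each library, 5 of 57 histone genes were called higher and 0 lower, with 8.48% of all genes corrected called higher and 6.12% lower. The median histone difference was then 0.21, and by class 0.09 for H1, 0.34 for H2A, 0.13 for H2B, 0.28 for H3 and 0.33 for H4. Called genes were Hist1h2be (0.76, limma adjusted p = 0.0357), Hist1h2bq and Hist1h2br, which are 1 measurement (0.72, 0.0169), and Hist1h4c (0.66, 0.0273). To these came Hist1h1d (0.75, 0.0307), whose annotated transcript runs to 7425 bases and which was not called without the correction. The transcripts used for Hist1h2be, Hist1h2bq, Hist1h2br and Hist1h4c had 2506, 1254, 1256 and 820 bases, all above the histone median of 536.5. Whether these long forms are the ones expressed was not determined. Hist1h2ag did not reach the threshold (0.81, limma adjusted p = 0.0889), as did Hist1h3c (0.56, 0.0681). Since the slopes differ between the groups, the correction removes any difference that follows length, and it uses the longest coding transcript. With the length slope as a covariate 0 histone genes were called by limma, 4 had an unadjusted p under 0.05 and the median was 0.41. Without the 3 libraries of steepest slope (control libraries 1 and 2 and Sirt1 deleted library 5) 0 were called, 27 had an unadjusted p under 0.05 and the median was 0.60. In these fits 0 and 3 of all 13567 genes were called.

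**Figure D3:**
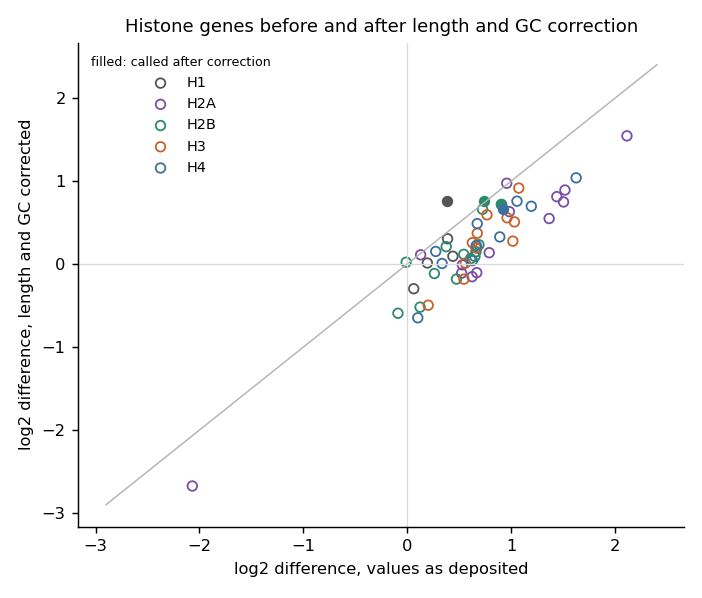
Log2 difference of each histone gene (coloured by class) without (horizontal) and with (vertical) the correction for transcript length and GC content, filled where called after it, with the line of equality. Most points lie below that line, with a median of 0.66 without and 0.21 with the correction.

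Libraries of a group were not alike. The median deviation of the tested histone genes from their own means, on the log2 scale, was -0.11, -0.58, -0.52, -0.19 and 0.02 in control libraries 1 to 5 and 0.40, 0.33, 0.46, 0.09 and 0.44 in Sirt1 deleted libraries 1 to 5. Control libraries 2 and 3 held the lowest value of 23 and 19 histone genes. The same 2 libraries were the lowest for Rn45s, the precursor of the ribosomal RNAs, which stood at 18325, 7891, 9519, 15361 and 18124 in control and at 24985, 31997, 22104, 21507 and 26486 in Sirt1 deleted libraries (log2 difference 0.94, SE 0.215, limma adjusted p = 0.0104). Of the 3 other tested RNAs of this list without a poly(A) tail 2 were called higher, Rpph1, the RNA of ribonuclease P (1.05), and Rmrp, the RNA of ribonuclease MRP (0.98), while Rn7sk (0.37) did not pass the test. Of 70 small nucleolar and other small RNA genes 6 were called higher and 1 lower, with a median of 0.16. Without control libraries 2 and 3, 0 of 58 histone genes and 0 of all 13567 genes were called by limma, 22 histone genes had an unadjusted p under 0.05, and the median difference was 0.50. With the Rn45s level as a covariate the median was 0.15 and again 0 were called. Whether the amount of RNA without poly(A) tails in a library plays a part in the histone differences was not tested beyond these values.

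**Figure D4:**
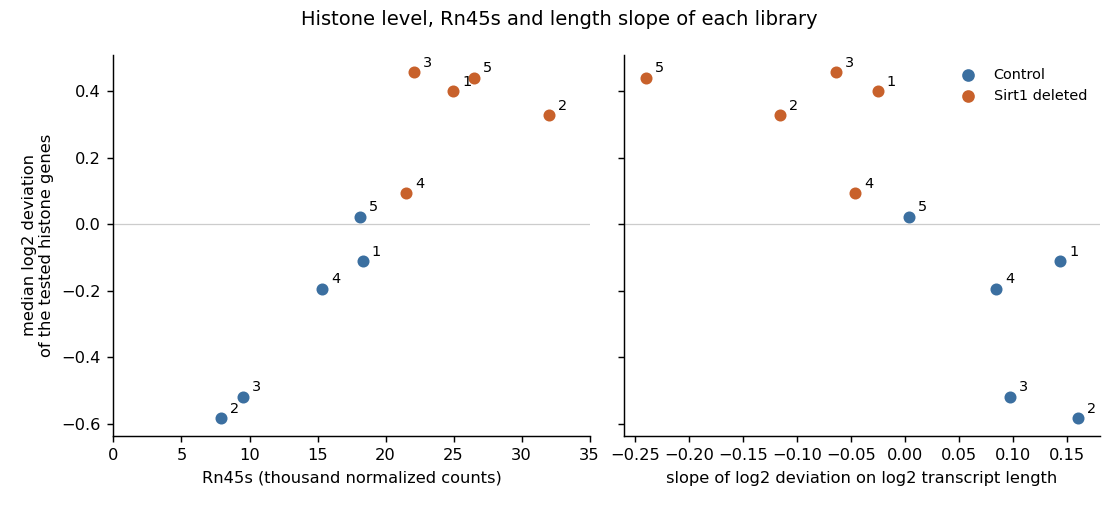
Median log2 deviation of the tested histone genes in each numbered library (vertical axis) against its Rn45s level in normalized counts (left) and against its length slope (right). Control libraries 2 and 3 are lowest in the histone deviation (-0.58 and -0.52) and in Rn45s, and the length slopes of the groups do not overlap.

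Calls in related lists stand beside 14.5% of all genes tested called higher and 17.5% lower, or 8.48% and 6.12% with the length and GC correction. Of 31 S phase genes 9 were called higher and 2 lower, with a median of 0.06. Their mean log2 level was 12.49 ± 0.05 in control and 12.53 ± 0.04 in Sirt1 deleted libraries (SD, n = 5). The replication licensing factor Cdt1 rose by 0.22 (SE 0.050, limma adjusted p = 0.00981) and the helicase subunit gene Gins1 by 0.32 (SE 0.0728, limma adjusted p = 0.0107). With the length and GC correction neither was called (Cdt1 0.06, limma adjusted p = 0.421, and Gins1 0.13, 0.0639), and 3 of the 31 genes were. With the S phase level as a covariate 23 histone genes were called, while 16.2% of all genes tested were called higher, against 14.5% without it. Of 21 genes of G2 and mitosis 5 were called higher, the mitotic ubiquitin-conjugating enzyme gene Ube2c (0.49) and the mitotic kinase gene Cdk1 (0.23) with the smallest p, and 4 lower, with a median of -0.06. Both were also called with the correction (Ube2c 0.38, Cdk1 0.39), where the list median was 0.05.

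Of 8 genes of histone gene transcription 5 were called lower and 0 higher, with a median of -0.33. Npat, the coactivator at histone loci, stood at 2270.4, 2320.3, 2068, 2096 and 1785 in control and at 1733, 1565, 1666, 1742 and 1153 in Sirt1 deleted libraries (log2 difference -0.43, SE 0.11, limma adjusted p = 0.0139). Pou2f1, which binds the octamer shown above, fell by 0.60 (SE 0.124, limma adjusted p = 0.00856). After the length and GC correction the median of the list was -0.04, Npat differed by -0.11 (limma adjusted p = 0.148) and Pou2f1 by -0.19 (0.0774). Of 14 genes of 3′ processing and turnover 2 were called higher and 4 lower, with a median of 0.02. Cstf2, a cleavage stimulation subunit, fell by 0.32 and Mif4gd, a partner of Slbp in translation, rose by 0.22, and neither was called with the correction (-0.13, limma adjusted p = 0.0931, and 0.07, 0.297). Slbp stood at 5446 ± 457 in control and 6135 ± 491 in Sirt1 deleted libraries (n = 5) and was not called (log2 difference 0.17, SE 0.0711, limma adjusted p = 0.0772). Of 21 histone chaperone genes 2 were called higher and 5 lower, with a median of -0.10, the smallest p belonging to Atrx (-0.56) and Supt6 (-0.27). With the correction neither was called (Atrx -0.14, limma adjusted p = 0.0544, and Supt6 -0.01, 0.859), and the list median was 0.00541.

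Genes of replication-independent histone variants, which are expressed outside S phase as well, were called higher in 6 of 10 cases and lower in 0, with a median of 0.25. H2afx, which encodes the damage-marked variant H2A.X and can give a stem-loop or a polyadenylated messenger, stood at 5045, 4323, 3827, 4419 and 6688 in control and at 7113, 7465, 7384, 6730.1 and 6891 in Sirt1 deleted libraries (log2 difference 0.58, SE 0.116, limma adjusted p = 0.00855). The groups did not overlap, with control library 5 just below the lowest Sirt1 deleted library. H2afj rose by 0.56 (SE 0.113, limma adjusted p = 0.00855), and after the correction by 0.42 (limma adjusted p = 0.0254), while H2afx was then not called (0.23, 0.0753). With the correction 4 of the 10 genes were called, and the list median was 0.21. H2afz, which encodes H2A.Z, differed by 0.06 and was not called.

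Markers of T cells and of other spleen cells were counted in the same way, beside the same 14.5% called higher and 17.5% lower among all genes tested. Of 13 T cell markers 2 were called higher and 0 lower (Cd3g 0.27 and Lat 0.18), with sums of 239565 to 252371 in control and 243208 to 277168 in Sirt1 deleted libraries. With the correction neither was called (Cd3g 0.07, limma adjusted p = 0.316, and Lat -0.10, 0.114), nor any other of the 13. Of 12 macrophage markers 7 were called lower and 0 higher (Slc40a1 -0.53, Cd5l -1.06), with sums of 11210 to 16504 and 6443 to 10472 that did not overlap. Of 11 erythroid markers 3 were lower (Slc4a1 -0.95, Epb42 -0.65), with sums of 423785 to 538966 and 206996 to 470054 that overlapped. Neutrophil markers were higher in 2 of 12 (Retnlg 1.05, S100a8 0.94), with sums of 1850 to 4926 and 2347 to 9772 that overlapped, and the 2 were not called with the correction (0.73 and 0.59). B cell markers were low throughout, with sums of 307 to 398 and 351 to 564, and 3 of 11 were called higher and 1 lower (Cd79a 0.85, Bank1 -0.61). Bank1 was not called with the correction (-0.52), nor was Epb42 (-0.51). Still called with it were Slc40a1 (-0.44), Cd5l (-1.13), Slc4a1 (-0.85) and Cd79a (0.66). With the correction 7 macrophage, 6 erythroid and 2 B cell markers were called, and the medians of these lists were -0.63, -0.60 and 0.47. Ebf1 (B cells) was at 0 in some libraries, and it and Ly6g (neutrophils) were too low to test. Their part in the histone differences was not tested, except that with B cell markers as a covariate the median histone difference was 0.71 and 0 genes were called.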

How the data were processed

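The authors deposited 1 table of normalized counts (a signal, not raw counts), with 1 column per library. Per the submitters' processing notes, kallisto 0.44.0, DESeq (no version given) and build mm10 were used. The annotation, the gene filter and the summing of transcripts are not given in the sources used here. All 10 columns were used and 0 were left out. The deposited signal was not whole, so no count model was fitted.

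The limma-trend fit (limma 3.58.1, R 4.3.3) took log2(value + 1), with a pseudocount of 1, for genes with at least 10 in at least 5 libraries. Benjamini-Hochberg adjustment ran over all 13567 genes, two-sided, with calls at 0.05. Depth was estimated from the spacing of low values. The correction fitted splines with 5 degrees of freedom on length and GC content in each library, for 12397 genes with a protein-coding GENCODE M21 transcript. Shared 31-base words were counted between transcripts. The fit was tested on simulated data. Tables used Python 3.11.15, numpy 2.4.6 and pandas 2.3.3, and figures matplotlib 3.10.9.

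Members and lists were chosen with earlier results of these data known. Values in every library are given for called histone genes and, in each class, for the gene with the largest mean over all libraries and the one lowest in difference. In each related list the 2 genes of smallest p are named, with Slbp and Npat. Any further gene was picked with its values in view. Alternatives were pseudocounts of 0.5 and 5, no filter, a minimum of 50, TMM factors, equal totals, quantile normalization, array weights, robust variance, the length and GC correction, covariates (length slope, S phase, Rn45s, B cell markers), identical genes counted once, and leaving out each library or the 3 with the steepest length slopes. Summing near copies and leaving out the 2 libraries of lowest Rn45s were added after the data were seen.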

Additional observations from a re-analysis of the deposited data

Results flagged for a closer look

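In 8 of 136 groups of 5 libraries examined (each histone gene and each class sum, by genotype), 1 library stood far from the other 4, with a gap to its nearest neighbour above 0.71 of the range. Chance gives this in about 1 in 20 groups. Among Sirt1 deleted libraries the lowest value stood apart for Hist1h1c (103.9, next 163), Hist1h2bf (7.83) and Hist3h2ba (91.8, next 118). The highest stood apart for Hist1h3d (23.7), Hist1h4d (135.9, next 84.1) and Hist2h2aa2 (65.4, next 9.0). Among control libraries the highest stood apart for Hist1h2ae (59.1) and Hist1h2ai (96.5). The cause was not tested.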

How the results depend on the processing

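No paired analysis was possible because the labels match no control spleen with a Sirt1 deleted spleen. The 22 histone calls, with Hist1h2bq and Hist1h2br both counted, became 11 of 17 tested with a minimum of 50. With the length and GC correction they became 5 of 57. They became 0 with the B cell marker covariate (32 unadjusted p under 0.05), the Rn45s covariate (5), the length slope covariate (4), without the 3 libraries of steepest length slope (27) and without the 2 libraries of lowest Rn45s (22). In these 5 fits at most 3 of all 13567 genes were called, so the loss was not confined to histone genes, and the cause was not tested. Leaving out single libraries gave 16 to 26 calls, 16 without control replicate 2. Of these, 1 was lower, Hist2h2aa2 without Sirt1 deleted replicate 3, against 0 in all other fits. The median difference was 0.15 with the Rn45s covariate, 0.21 with the correction and 0.41 with the slope covariate. Of the related lists 65 genes were called, which became 35 with the correction, 27 to 71 on leaving out single libraries (27, 28 and 39 without control replicates 1, 2 and 4, and 37 without Sirt1 deleted replicate 2), and 0 in the same 5 fits. The Sirt1 level (log2 difference) was -0.30 with B cell markers (limma adjusted p = 0.161), -0.28 with Rn45s (0.618), -0.000569 with the slope (0.999), -0.27 without the steepest libraries (0.128) and -0.42 without the lowest Rn45s (0.0940). Among called histone genes and the medians of the 5 classes, signs turned for Hist1h2ao (-0.28, Rn45s), Hist1h4d (-0.0881, slope), the H1 median (-0.20, slope) and the H2A median (-0.11, Rn45s). With the correction they also turned for the median of genes without stem-loop letters (-0.10) and of the G2 and mitosis (0.05), chaperone (0.00541) and T cell (-0.01) lists, and with Rn45s for the chromosome 3 median (-0.06). A value of 10 rests on 6.20 to 13.1 reads, so small differences at that level were not detectable.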
